A study of Rattus norvegicus with 9 samples.

Results

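The Yippee-like genes are a family of 5 members in the rat, Ypel1 to Ypel5, and all 5 had a row with values among the 19294 genes read from the deposited expression table. They were taken by gene symbol. The family was selected on the FPKM of Ypel2, which differed between hypertensive rats with and without treatment, so the values of that comparison are given below as a description, without a test, and Ypel2 is not tested in the other comparisons, which share those samples. RNA sequencing had been done on the left ventricle of spontaneously hypertensive rats that received the plant alkaloid oxymatrine (SHR_OMT, called treated SHR), of untreated spontaneously hypertensive rats (SHR, inbred animals whose high blood pressure is inherited) and of Wistar Kyoto rats (WKY, the normotensive strain), with 3 samples per group. The sources used here do not give the dose, the length of treatment, the animals' age and sex or the hour at which tissue was taken. Nor do the labels say that the 3 samples of a group were separate animals, so p-values reflect only how these samples varied.

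Yippee-like proteins are small, share a zinc-binding fold with a few other proteins, and are strongly conserved among eukaryotes. They were named after the fly protein Yippee. Members have been tied to cell shape, growth arrest and senescence, red cell membranes and protein breakdown, mostly in cultured cells and in mice, and little is known of them in heart muscle. YPEL5 is a known partner of the CTLH complex, a ubiquitin ligase with many subunits that marks proteins for breakdown.

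The promoters of Ypel2 and Ypel4 are shown because these members had the widest differences, Ypel2 between treated SHR and the other groups and Ypel4 between WKY and the other groups. Each is the 250 bases before the annotated start, from RefSeq (build GRCr8), written 5′ to 3′ on the strand of the gene. The Ypel2 stretch lies at chr10:72301125-72301374 on the minus strand, and the Ypel4 stretch at chr3:90222612-90222861 on the plus strand. Capitals mark matches to 3 motifs, GGGCGG (the GC box), CCAAT and TGACTCA (the AP-1 motif), searched on both strands, so that CCAAT can appear as ATTGG.
Ypel2: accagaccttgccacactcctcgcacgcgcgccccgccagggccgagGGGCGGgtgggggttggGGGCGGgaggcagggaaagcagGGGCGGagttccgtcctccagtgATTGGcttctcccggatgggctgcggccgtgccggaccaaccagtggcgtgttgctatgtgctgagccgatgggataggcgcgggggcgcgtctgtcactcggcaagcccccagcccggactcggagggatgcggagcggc
Ypel4: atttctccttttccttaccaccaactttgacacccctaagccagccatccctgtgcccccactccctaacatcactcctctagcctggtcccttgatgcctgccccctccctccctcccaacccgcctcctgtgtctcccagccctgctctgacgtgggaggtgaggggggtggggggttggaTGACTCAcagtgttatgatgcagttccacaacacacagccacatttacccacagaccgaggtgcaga

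The Ypel4 stretch differed in composition from those of the other members. It had 58.4% G and C and 3 CpG dinucleotides, whereas the stretches of Ypel1, Ypel2, Ypel3 and Ypel5 had 70.8% to 72.8% G and C and 19 to 30 CpG dinucleotides. The median over 27457 rat promoters of this length was 52% G and C and 6 CpG dinucleotides. CCAAT had 1 match each before Ypel1, Ypel2 and Ypel3, and 34.3% of all promoters had at least 1. The first base of the match lay 88, 141 and 68 bases before the start. The GC box was matched before Ypel1, Ypel2 and Ypel5, 2, 3 and 6 times, and 32.4% of all promoters had at least 1 match. The AP-1 letters stood before Ypel4, starting 67 bases ahead of the start, and 3.98% of all promoters had at least 1 match. Neither CACGTG (the E-box, 5.79% of all promoters) nor TTATGTAA (the D-box, 0.816%) was found in any of the 5 stretches, and no base lay in more than 1 motif.

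Values are FPKM, the authors' fragments scaled to gene length and library total, so levels of different genes are compared per length. All 5 members passed the filter for testing, a mean FPKM of at least 1 over the 9 samples, which 12451 genes passed. Read depth is unknown, because the table holds no counts, and FPKM added up to 587526 to 606633 in a library. The ventricular light chain gene Myl2 averaged 7788 FPKM in treated SHR, 7976 in SHR and 7317 in WKY. The atrial light chain gene Myl7 had 0.71 to 2.85 FPKM in treated SHR, 0.92 to 1.29 in SHR and 9.33, 8.06 and 1.49 in WKY replicates 1 to 3. Of the 5 atrial markers looked up, Myl7 and Sln had lower means in SHR than in WKY, and Tbx5, Nppa and Myl4 higher ones. Tbx5 averaged 8.29 FPKM in SHR and 5.46 in WKY. The summed level of the 5, mostly Nppa, overlapped between the groups. It was 982 to 1934 FPKM in treated SHR, 983 to 4469 in SHR and 1269 to 2635 in WKY.

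Ypel3 and Ypel5 were the abundant members, with mean levels over the 9 samples of 64.4 and 50.2 FPKM, above 89.2% and 86.2% of the genes tested. Ypel2 followed with 18.3 FPKM, above 66.1% of the genes tested. Ypel4 (3.99 FPKM) and Ypel1 (2.49 FPKM) were low, above 23.6% and 13.8% of them. Ypel3 exceeded Ypel5 in all 9 samples, by the least in SHR replicate 2, where their levels were 51.9 and 49.0 FPKM. The ranges of Ypel3, 51.9 to 78.1 FPKM, and of Ypel5, 46.1 to 54.6 FPKM, overlapped over the 9 samples, and so did those of Ypel4, 2.97 to 6.16 FPKM, and Ypel1, 1.90 to 3.16 FPKM. Ypel5 was the steadiest member, its highest sample at 1.18 times its lowest, against 2.07 times for Ypel2 and for Ypel4.

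**Figure D1:**
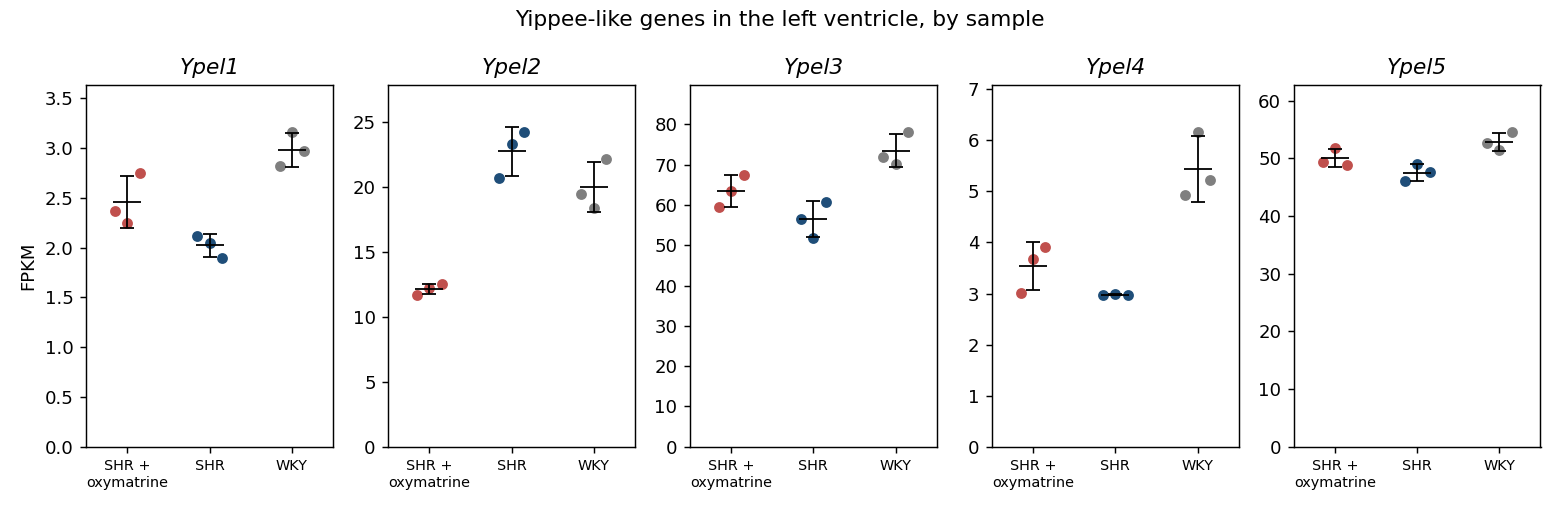
FPKM of each Yippee-like gene (y axis, one scale per gene, from 0) in treated SHR (left), SHR (middle) and WKY (right); points are samples, long bars the means and whiskers the SD (n = 3). The 3 treated samples of Ypel2 sit between 11.7 and 12.5 FPKM, below all 6 others, while Ypel1, Ypel3, Ypel4 and Ypel5 have their lowest mean in SHR.

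Ypel2 (NCBI Gene ID 360590), a member whose function is little defined, was the gene for which the family was chosen. It had 11.7, 12.2 and 12.5 FPKM in treated SHR, 20.7, 23.3 and 24.2 FPKM in SHR and 19.5, 18.4 and 22.1 FPKM in WKY. All 3 treated samples lay below the 6 others, while SHR and WKY overlapped. The means were 12.2 ± 0.409 FPKM in treated SHR and 22.7 ± 1.85 in SHR (SD, n = 3 each), so that the treated level was 53.5% of the untreated one. On the log2(FPKM + 1) scale, used for every difference here, treated minus untreated SHR was −0.85 (SE 0.0798). The same scale gave −0.67 (SE 0.0798) for treated SHR minus WKY, whose mean was 20.0 ± 1.93 FPKM, and 0.18 (SE 0.0798) for SHR minus WKY. Ranked from the lowest, the difference between treated and untreated SHR was number 39 of 12451 genes. In that comparison 0.241% of the genes tested passed an adjusted p of 0.05 in limma, and for 3.99% all treated samples lay below all untreated ones. Over the 3 groups, 1.29% of the genes tested had every treated sample below every other sample. The authors' deposited table gives log2 ratios of −0.95 for treated over untreated SHR and 0.29 for SHR over WKY.

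The other 4 members had small differences of the opposite sign between treated and untreated SHR, also given as a description. Ypel4 had 3.02, 3.68 and 3.92 FPKM in treated SHR and 2.97, 2.99 and 2.98 FPKM in SHR, and Ypel1 had 2.37, 2.25 and 2.75 FPKM in treated SHR and 2.12, 2.05 and 1.90 FPKM in SHR. The groups did not overlap in either gene, although by a small margin in Ypel4. The same, with treated SHR higher, held for 13.2% of all genes tested. Ypel3 and Ypel5 overlapped between the 2 groups. The log2 differences were 0.19 (SE 0.0871) for Ypel1, 0.17 (SE 0.0715) for Ypel3, 0.18 (SE 0.0993) for Ypel4 and 0.07 (SE 0.0469) for Ypel5, where the median of all tested genes was 0.04. In FPKM, the treated mean minus the untreated mean was −10.6 for Ypel2, 6.97 for Ypel3, 2.51 for Ypel5, 0.56 for Ypel4 and 0.433 for Ypel1. RSEM, which the submitters' processing notes name, divides reads between similar sequences, and whether reads passed between members was not tested.

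**Figure D2:**
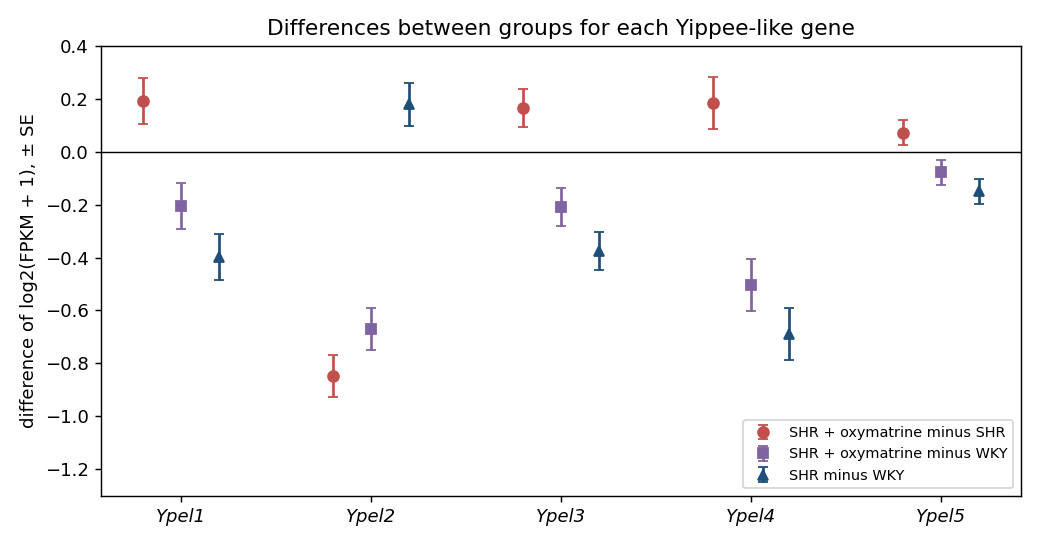
Difference of log2(FPKM + 1) (y axis, ± SE from limma, n = 3 per group) for each Yippee-like gene (x axis) in the 3 comparisons named in the legend. Ypel2 has −0.85 for treated minus untreated SHR and −0.67 for treated SHR minus WKY, while the other 4 genes are lowest in SHR minus WKY, with Ypel4 at −0.69.

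SHR against WKY and treated SHR against WKY are the comparisons in which Ypel1, Ypel3, Ypel4 and Ypel5 were tested. SHR against WKY, given here, shares the SHR samples with the comparison just described. All 4 fell in SHR, by limma with Benjamini-Hochberg adjustment over the 12451 genes, where 33.9% of all genes tested were called, 23.1% lower and 10.8% higher. In each of the 4 every SHR sample lay below every WKY sample, as in 33% of all genes tested.

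Ypel4 (NCBI Gene ID 502643), which mouse red cells need for a sound membrane, had the widest difference of the 4. Its levels were 2.97, 2.99 and 2.98 FPKM in SHR and 4.93, 6.16 and 5.22 FPKM in WKY. The SHR mean, 2.98 ± 0.01 FPKM, was 54.8% of the WKY mean, 5.44 ± 0.643 (SD, n = 3 each). The log2 difference was −0.69 (SE 0.0993, adjusted p = 0.000958 in limma), and the call held in all 17 alternative settings in which the gene was tested. Of the red blood cell markers looked up beside it, the summed level of the 11 with a row ran from 1904 to 3951 FPKM in SHR and from 2520 to 4531 FPKM in WKY, so the groups overlapped, and none of the 11 was at 0 in every sample. Of the 8 tested, Hba-a1 among them but set aside, Bpgm was called lower, where 23.1% of all genes tested were. The alpha globin copy Hba-a1 was listed at 0 in all 3 SHR samples and averaged 23.1 ± 10.3 FPKM in WKY (SD, n = 3), passed the filter only through WKY and is not counted, and its reads may be divided with other globin genes. The part of red cells in the Ypel4 difference was not tested.

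Ypel3 (NCBI Gene ID 293491), a target of p53 in human cells that slows growth when raised, had 56.5, 51.9 and 60.8 FPKM in SHR and 72.0, 70.2 and 78.1 FPKM in WKY. The SHR mean of 56.4 ± 4.47 FPKM was 76.8% of the WKY mean of 73.4 ± 4.11 FPKM. The log2 difference was −0.38 (SE 0.0715, adjusted p = 0.00385 in limma), called under all 18 alternative settings. Ypel1 (NCBI Gene ID 100360867), which alters the shape of cultured mouse fibroblasts when overexpressed, had 2.12, 2.05 and 1.90 FPKM in SHR and 2.82, 3.16 and 2.97 FPKM in WKY. Its SHR mean was 67.8% of the WKY mean, with a log2 difference of −0.40 (SE 0.0871, adjusted p = 0.00758 in limma). Quantile normalization ended this call (adjusted p = 0.0616).

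Ypel5 (NCBI Gene ID 298792) had the smallest difference and the least firm call. It had 46.1, 49.0 and 47.6 FPKM in SHR and 52.6, 51.4 and 54.6 FPKM in WKY, a ratio of means of 89.9%. The log2 difference was −0.15 (SE 0.0469, adjusted p = 0.0345 in limma), where the median of all genes tested was −0.08. Of 18 alternative settings 9 ended the call, with an adjusted p of 0.336 under median-of-ratios scaling, where the difference was −0.06, and of 0.0794, 0.109, 0.105 and 0.0741 without WKY replicate 1, WKY replicate 3, SHR replicate 1 and SHR replicate 3. In the authors' deposited table, 2 of the 4 had a q under 0.05, Ypel4 (0.0138) and Ypel3 (0.0282), against 0.126 for Ypel1 and 0.826 for Ypel5, and 16.4% of the genes with a q there were under 0.05.

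The scaling moved the balance of all calls in this comparison. Of the called genes 31.9% were higher in SHR as deposited, 53.2% with median-of-ratios scaling and 50.9% with quantile normalization. Endothelial markers moved with the 4 genes. The summed level of the 8 markers looked up, none of them at 0 in every sample, was 537 to 602 FPKM in SHR and 717 to 837 FPKM in WKY, and 7 of the 8 were called lower, among them Emcn (−0.68) and Egfl7 (−0.66), 5 of them with median-of-ratios scaling. Of all genes tested 23.1% were called lower as deposited, and 1789 of 12451 with that scaling. The part of endothelial cells in the results for the 4 genes was not tested, and in bulk tissue fewer cells of a type and less RNA per cell cannot be told apart.

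Treated SHR against WKY shares samples with both comparisons above. Of the 4 genes tested, 1 was called, Ypel4, where 24.9% of all genes tested were called, 14.6% lower and 10.2% higher. It had 3.02, 3.68 and 3.92 FPKM in treated SHR against 4.93, 6.16 and 5.22 FPKM in WKY, a log2 difference of −0.50 (SE 0.0993, adjusted p = 0.00636 in limma). The endothelial markers moved with it here too, with a summed level of 600 to 620 FPKM in treated SHR and 717 to 837 FPKM in WKY, and 6 of the 8 called lower. Their part in the Ypel4 difference was not tested. Ypel3 had 59.4, 63.4 and 67.4 FPKM in treated SHR and 72.0, 70.2 and 78.1 FPKM in WKY, with no overlap, as with treated SHR lower in 25.7% of all genes tested, and a log2 difference of −0.21 (adjusted p = 0.0586 in limma, with a range of 0.0304 to 0.179 over the alternatives). With the replicate number as a block its adjusted p in limma was 0.035, which made 2 of the 4 genes called. Ypel1 had a difference of −0.21 (adjusted p = 0.111) and Ypel5 of −0.08 (adjusted p = 0.254, both in limma), and treated SHR and WKY overlapped in Ypel5 alone. Over the 3 groups, every WKY sample lay above all 6 others in Ypel1, Ypel3 and Ypel4, as in 21.4% of the genes tested. In Ypel1 and Ypel4 no groups overlapped, in the order SHR, treated SHR, WKY, as in 4.13% of the genes tested. In Ypel4 the margin between SHR and treated SHR was small, from 2.99 to 3.02 FPKM. Among called genes 41.2% were higher in treated SHR as deposited and 54.5% with median-of-ratios scaling.

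The summed level of the family was lower in both hypertensive groups than in WKY, and the make-up of the sum differed between treated and untreated SHR. The 5 members together had 126, 133 and 135 FPKM in treated SHR, 128, 129 and 137 FPKM in SHR and 152, 149 and 163 FPKM in WKY. Treated and untreated SHR overlapped in this sum, and WKY lay above both. Ypel2 made up 9.31%, 9.16% and 9.25% of it in treated SHR, 16.1%, 18.0% and 17.6% in SHR and 12.8%, 12.3% and 13.6% in WKY, so this share did not overlap between any of the groups. Ypel3 made up 47.2% to 49.7% in treated SHR, 40.1% to 44.2% in SHR and 47.0% to 47.9% in WKY. These shares hold the Ypel2 values that chose the family and are a description.

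**Figure D3:**
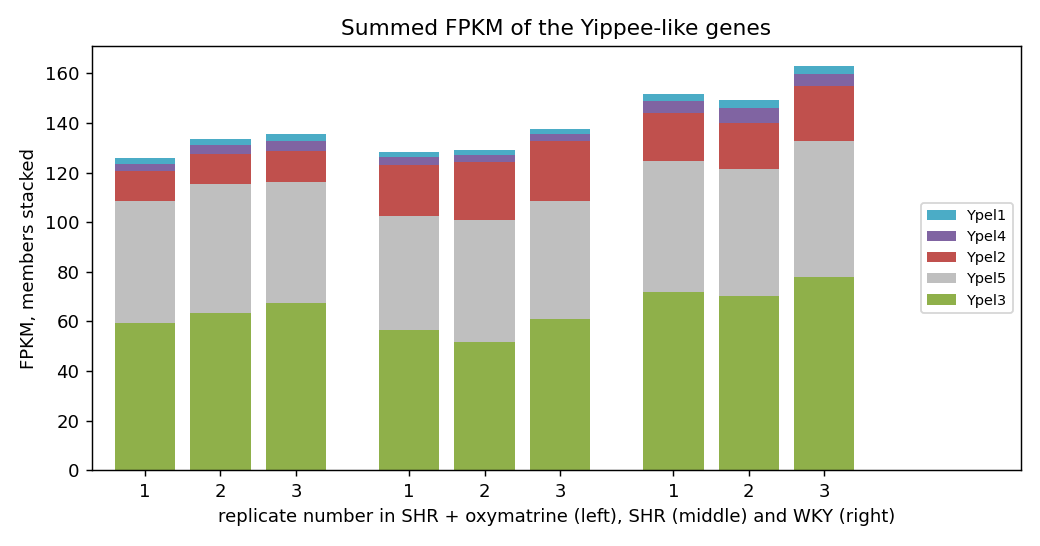
FPKM of the 5 Yippee-like genes stacked for each sample (y axis, FPKM from 0), with treated SHR on the left, SHR in the middle and WKY on the right, and the replicate number below each bar. The sums run from 126 to 137 FPKM in the 6 hypertensive samples and from 149 to 163 FPKM in WKY, and the Ypel2 layer is thinnest in treated SHR.

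Profiles over the 9 samples were compared with those of all other tested genes by the root mean square difference of log2(FPKM + 1), after each gene was centred on its own mean, so that 0 would be the same profile. For Ypel2 a flat gene would lie at 0.375. The nearest profile in the same direction was that of Adamts19, a secreted metalloprotease gene, at 0.195, followed by Smad6, an inhibitor of bone morphogenetic protein signals, at 0.206, Tmem206 at 0.209, Tmem140 at 0.210, Hyi at 0.214 and Cd55, which shields cells from complement, at 0.217. Profiles of the opposite sign came closer. After the sign was turned, Alppl2 lay at 0.129, Bhlhe40 at 0.129, the tetraspanin gene Tspan4 at 0.137 and Cmtm5 at 0.138. Bhlhe40, a repressor of E-box genes that belongs to the circadian clock, had 34.2, 31.5 and 32.4 FPKM in treated SHR, 19.6, 19.6 and 18.3 FPKM in SHR and 18.0, 21.1 and 15.1 FPKM in WKY. All 3 treated samples lay above the 6 others in Bhlhe40, and SHR and WKY overlapped. These genes were picked by their profile over the same samples, so their values are a description. Alppl2 and Cmtm5 were near the filter, with 1.90 and 2.67 FPKM in treated SHR, 0.94 and 1.35 in SHR and 1.12 and 1.60 in WKY.

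Ypel4 had closer neighbours in profile than Ypel2. A flat gene would lie at 0.307, and the nearest genes were Thumpd2 at 0.0825, Stat2, a transcription factor of the interferon response, at 0.0863, Itpripl1 at 0.0883, the DNA repair gene Xrcc3 at 0.0913, Ddx58, the viral RNA sensor RIG-I, at 0.0916, and Lgals3bp, a secreted glycoprotein gene, at 0.0957. Stat2 had 16.4, 16.3 and 17.7 FPKM in treated SHR, 12.9, 13.1 and 14.0 FPKM in SHR and 20.3, 24.9 and 22.9 FPKM in WKY. Its groups were apart in the same order as those of Ypel4. The nearest mirrored profiles with a gene name were those of Nt5c2 (0.0890), the muscle gene Cmya5 (0.0908) and the mitochondrial carrier Slc25a30 (0.0936). Between members, Ypel1 and Ypel3 were the closest pair at 0.0974, and Ypel2 lay 0.387 to 0.473 from each of the other members, farther than a flat gene.

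**Figure D4:**
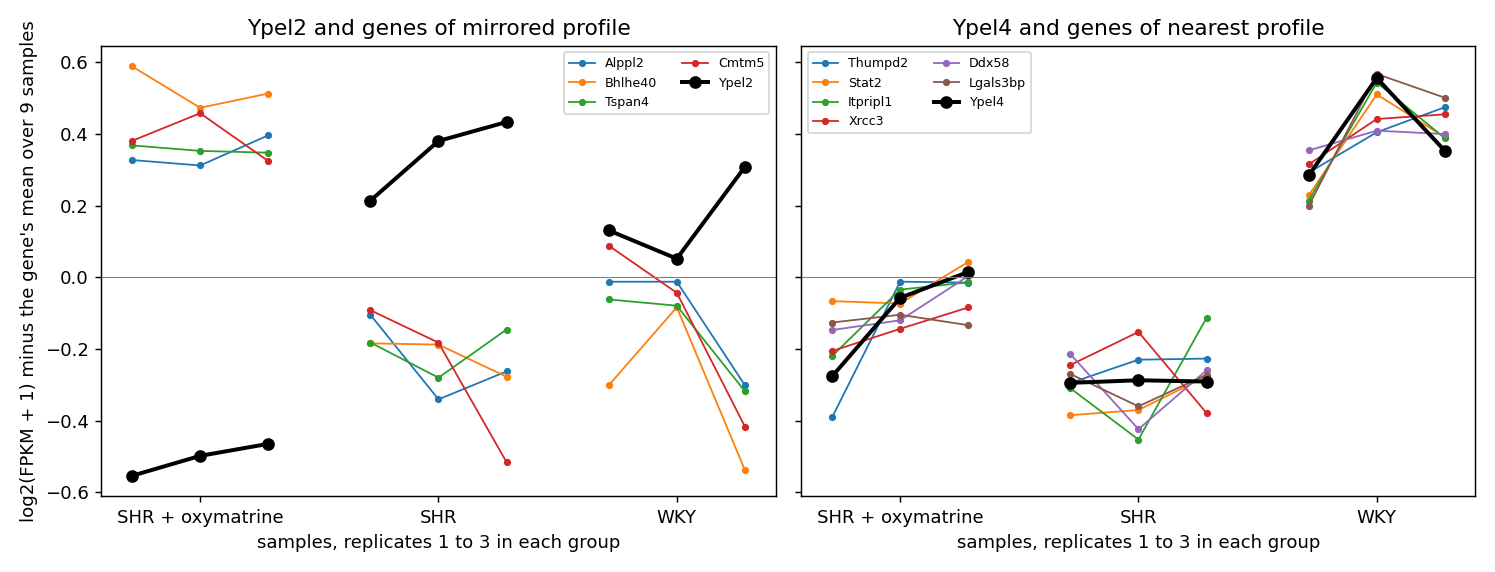
Values of log2(FPKM + 1) minus each gene's mean over the 9 samples (y axis), for treated SHR, SHR and WKY with replicates 1 to 3 in each (x axis; lines join the samples of a group only to guide the eye). Left, Ypel2 in black with the named genes of most nearly mirrored profile, such as Bhlhe40 at a distance of 0.129; right, Ypel4 in black with the named genes of nearest profile, such as Stat2 at 0.0863.

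Clock genes, Bhlhe40 among them, were one of the lists looked up beside the family. Of 18 tested, 7 were higher in treated than in untreated SHR (Dbp, Ciart, Per3, Per2, Bhlhe41, Tef and Bhlhe40) and 2 lower (Arntl and Npas2), by limma, where 0.153% of all genes tested were called higher and 0.0883% lower. Ciart, counted as higher here and in both comparisons below, passed the filter only through treated SHR. It had 7.88 FPKM there, 1.06 in SHR and 0.537 in WKY. Bhlhe40 had been picked above by its profile over these samples, so the calls of both are only a description in every comparison. The median log2 difference of the list between treated and untreated SHR was 0.55, against 0.04 over all genes. In SHR against WKY 6 of the 18 were called higher and 2 lower, where 10.8% and 23.1% of all genes were. The median was 0.20, against −0.08, and no lower call held under the other scalings. In treated SHR against WKY 10 were called higher and 5 lower, where 10.2% and 14.6% of all genes were. The median was 0.67, against −0.04. Schwann cell markers stood apart between treated and untreated SHR. The summed level of the 5 looked up was 19.8 to 25.0 FPKM in treated SHR and 9.51 to 13.0 FPKM in SHR, with none at 0 in every sample, and 10.9 to 25.5 FPKM in WKY, and none of the 5 was called between treated and untreated SHR. The part of either list in the Ypel2 difference was not tested.

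Of the CTLH complex, 10 subunits were looked up beside Ypel5 and all were tested. In SHR against WKY 1 of them rose, Gid4, the receptor that takes up substrates, with 28.9 ± 0.522 FPKM in SHR and 22.0 ± 0.513 FPKM in WKY (SD, n = 3 each; log2 difference 0.38, adjusted p = 0.000505 in limma). None fell, where 10.8% of all genes tested were called higher and 23.1% lower, so 1 of 10 is near the share over all genes. The median difference was −0.02, against −0.08 over all genes tested. With median-of-ratios scaling 4 of the 10 were called higher, where 2033 of all 12451 genes tested were. With quantile normalization 3 of the 10 were, where 1881 of all genes tested were. The scaffold genes Ranbp9 and Ranbp10 had differences of −0.07 and 0.08, Wdr26 of 0.11, and the ring finger subunit gene Maea of 0.00 (adjusted p = 0.344, 0.285, 0.156 and 0.998 in limma). Between treated SHR and WKY, Gid4 was again the 1 gene called, 0.32 higher (adjusted p = 0.00186 in limma), where 10.2% of all genes tested were called higher. Between treated and untreated SHR none of the 10 was called, where 0.241% of all genes tested were, and the median difference was 0.01. Among other proteins with a Yippee-type fold, Crbn, the substrate receptor bound by thalidomide, had 22.4 FPKM in treated SHR, 21.3 in SHR and 22.6 in WKY, with a difference of −0.08 between SHR and WKY (adjusted p = 0.282 in limma). Mis18a, which acts at centromeres, stayed below the filter at 0.807, 0.777 and 1.23 FPKM in the same groups.

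Of 18 other p53 targets tested in SHR against WKY, 4 rose and 4 fell in limma, where 10.8% of all genes tested were called higher and 23.1% lower, so the count that fell is near the share over all genes. Those that rose were Cdkn1a, the inhibitor of cyclin-dependent kinases (0.85), Tp53i3 (0.70), Ccng1 (0.41) and Rrm2b (0.39), and those that fell were Plk2 (−0.66), Ddb2 (−0.54), the cell death gene Bbc3 (−0.51) and Bax (−0.29). The call of Rrm2b ended in 6 of 18 alternatives (highest adjusted p = 0.0878 in limma) and that of Plk2 in 5 (highest adjusted p = 0.0882). The median difference was 0.00. With median-of-ratios scaling 4 of the 18 were called higher and 4 lower, where 2033 and 1789 of all 12451 genes tested were. With quantile normalization 5 were called higher and 4 lower, where 1881 and 1812 of all genes tested were. Between treated and untreated SHR 1 of the 18 was called, Cdkn1a, which was lower. Of all genes tested 0.241% were called in that comparison, and 0.0883% were called lower. Cdkn1a had 24.5 ± 2.03 FPKM in treated SHR against 53.7 ± 9.98 in SHR (−1.09, adjusted p = 0.0162 in limma). That call ended in 7 of 18 alternatives (highest adjusted p = 0.0786 in limma).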

How the data were processed

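Per the labels' protocols, Trizol was used to extract RNA from the 9 left ventricle samples, and KAPA RNA HyperPrep libraries were sequenced on a BGISEQ-500. Named in the submitters' processing notes are Bowtie2, RSEM 1.3.1, DESeq2 1.4.5 and the build Rnor_6.0, with no settings. The values the authors deposited are FPKM, scaled by gene length and library total, per the file headers, beside the authors' own log2 ratios and q-values for SHR over WKY and treated over untreated SHR. Of 22864 rows 19294 had values, and 27 symbols turned into dates were restored through the Gene ID. Depth is unknown, so no interval for counting error is given.

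The 12451 genes whose FPKM averaged 1 or more were tested in limma 3.58.1 (R 4.3.3) on the log2(FPKM + 1) scale, on which low genes appear to change less than they do. All 3 groups entered a single two-sided model with a mean-variance trend and 6 residual degrees of freedom, and p-values were adjusted by Benjamini-Hochberg over all of these genes, with 0.05 as the threshold. No count model was run on FPKM. Replicate numbers were not used as pairs in this model (see the dependence on processing).

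The members, the gene lists, the motifs and the alternatives were chosen with earlier results of these data known. Named genes were the 5 members, called genes of each list with up to 4 others, and the 8 nearest and 4 mirrored profiles. Those profiles were searched for members whose group means spanned at least 0.5, with loci without a name left out. Cell type lists are named in part. Clock genes other than Ciart are named for the treatment comparison alone, and Trp53inp1 and Oip5 were not analysed here. The lists of ventricular, atrial, fibroblast, macrophage, lymphocyte, pericyte, fat and Schwann cell markers were also looked up. In SHR against WKY 1 of 6 ventricular and 1 of 5 atrial genes tested were called higher. Called lower were 1 of 5 atrial, 1 of 6 fibroblast, 1 of 3 lymphocyte and 1 of 5 Schwann genes tested. Over all genes tested 10.8% were called higher and 23.1% lower. Promoters came from RefSeq tables of GRCr8, whose build differs from the authors', so the only coordinates given are those of the 2 printed stretches, in GRCr8. Alternatives were a pseudocount of 0.1, other filters on low values (none, or a mean of 5 FPKM), other scalings (median of ratios, quantile), a model of only the groups compared, weights per sample, moderation without a trend, the replicate block, and leaving out each sample. Figures were drawn with matplotlib 3.10.9.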

Additional observations from a re-analysis of the deposited data

How the results depend on the processing

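Over 18 alternative settings no result changed direction where it was called. Of the 4 members tested in SHR against WKY, 4 were called, 3 to 4 with single samples left out, and 2 both with quantile normalization and with a filter at a mean of 5 FPKM, where Ypel1 and Ypel4 are not tested. In treated SHR against WKY 1 was called, 2 with sample weights and with the replicate block, 0 with a filter at a mean of 5 FPKM, and 1 to 2 with single samples left out. In treated against untreated SHR 30 of all genes were called, 12 with no filter, 17 with no variance trend, 14 with the replicate block, 19 with only the groups compared, and 6 to 33 with single samples left out. In treated SHR against WKY 3095 of all genes were called, and 1896 to 3038 with single samples left out; in SHR against WKY 4215 were, and 2868 to 4383 over all settings. The Ypel2 difference between treated and untreated SHR ran from −0.91 to −0.80. Same-numbered samples did not deviate together (correlations of −0.109 to 0.0276 over 9 pairs, and 0 of 9 samples correlated best with their own number), so they share only a number; the block took Ypel5 in SHR against WKY to an adjusted p of 0.0687 in limma and Ypel3 in treated SHR against WKY to 0.035. The causes were not tested. Depth limits Ypel1 and Ypel4 most, at 1.90 to 6.16 FPKM, but how far is unknown without counts.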

Other observations

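Ypel4 varied unusually little among the SHR samples, at 2.97, 2.99 and 2.98 FPKM, a coefficient of variation of 0.336%, against 13.2% in treated SHR and 11.8% in WKY. The median over all tested genes in SHR was 7.32%, and 18 of 12451 genes had a value as small or smaller, Ypel4 among them. Among the 1472 genes with a mean FPKM of 3 to 5, where the median was 10.3%, 2 did. This was noticed after the values were seen.

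The genes next to the members in RefSeq order were read as well. The nearest with values on either side of Ypel2, Dhx40 and Gdpd1, had 13.5 and 7.90 FPKM in treated SHR and 14.3 and 7.26 FPKM in SHR, log2 differences of −0.07 and 0.11. Ube2l6, which encodes a conjugating enzyme for the interferon-induced modifier ISG15, is the second gene from Ypel4 on one side, with 13.9 FPKM in treated SHR, 11.2 in SHR and 20.9 in WKY (−0.85 for SHR minus WKY, adjusted p = 0.000962 in limma). Serping1, which lies between them among the genes with values, had 91.4, 92.4 and 89.2 FPKM in the same groups, with a difference of 0.05 (adjusted p = 0.769 in limma). Mapk3, 2 genes from Ypel3, had 60.2 FPKM in treated SHR, 59.0 in SHR and 76.6 in WKY (−0.38 for SHR minus WKY, adjusted p = 0.00103 in limma), and Lbh, next to Ypel5, had 381, 308 and 226 FPKM (0.44, adjusted p = 0.00132 in limma), opposite in sign to Ypel5. Also called for SHR minus WKY in limma were Clp1, next to Ypel4 on its other side (−0.29, adjusted p = 0.0349), and Ppm1f, 2 genes from Ypel1 (−0.32, adjusted p = 0.00603). So was Lclat1, 2 genes from Ypel5 (0.32, adjusted p = 0.0168). No other neighbour read was called, where 33.9% of all genes tested were. These neighbours were named after their values were seen.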
